A study of Mus musculus with 11 samples.

Results

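DNA methylation of 7 genes was followed in sorted mouse bone marrow cells with and without Dnmt3a: Runx1, Runx2 and Runx3, the Runt-domain transcription factors; Cbfb, their shared binding partner; and Cbfa2t2, Cbfa2t3 and Runx1t1, the corepressors of the Cbfa2t (MTG) family. They are 7 of 23558 genes with enough measured C positions. The set was chosen by measured methylation levels, for losses in Runx3, Runx1 and Cbfa2t3 that earlier results of these libraries showed in knockout LSK cells, so the LSK comparison of knockout and control is given for these genes as a description, without a test. A member position lay within a gene's span or 1 kb on either side. The 7 genes held 1973 listed C positions, of which 1391 were listed in all 10 libraries with a clear genotype. These fell into 88 of the 100150 tiles tested, a tile being a fixed 1000-bp stretch with at least 3 such positions.

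Methylation was measured at CpG sites by enhanced reduced representation bisulfite sequencing, which reads short MspI fragments after bisulfite has turned unmethylated C into T. All animals were C57BL/6 mice with a floxed Dnmt3a gene (f/f), aged 12 months and given 5 injections of poly(I:C), which switches on the Mx1 promoter. Knockout animals also carried Mx1-Cre and control animals did not, so both genotypes share the floxed allele and the poly(I:C). Mx1 is an interferon-responsive promoter, and Cre driven by it is known to act in cells outside the blood too. LSK cells (Lin- Sca1+ cKit+, the marrow fraction that holds the stem cells) gave 3 control libraries (1326, 1330 and 1331) and 3 knockout libraries (1327, 1333 and 1334). GMP cells (Lin- Sca1- cKit+ CD34+ FcgR+, the granulocyte and macrophage progenitors) gave 2 control libraries (346 and 349) and 2 knockout libraries (178 and 179). The labels of a further GMP library, 352, name both genotypes, so its values are given apart and it entered no group. The cell types rest on the sort alone, since marker expression was not measured in these libraries.

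Coverage summed over the listed C positions was 157.3 to 181.1 M in the LSK libraries (M, 1e6). It was 95.4 to 109.7 M in the GMP libraries. A read that covers several positions is counted at each, so these are not numbers of reads. Mean coverage over the positions of each of the 7 genes was 92.5 to 113 reads. Of 5 Dnmt3a positions listed in every control and in no knockout LSK library, knockout GMP libraries 178 and 179 listed 4 and 5, and library 352 listed 0. Knockout LSK library 1333 stood apart: 118988 of its positions were listed nowhere else, beside 6313 to 35250 such positions per library in the others. LSK libraries 1326 and 1327, 1 of each genotype, listed 1470 and 1422 positions on the Y chromosome, and the other 4 LSK libraries listed 211 to 229. The GMP libraries listed 1226 to 1326.

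Runx proteins bind DNA through the Runt domain at a short TGTGGT core, and Cbfb, which does not bind DNA itself, strengthens that binding. Runx1 is required for the first definitive blood stem cells and later shapes megakaryocytes and lymphocytes, Runx2 is the master regulator of bone-forming osteoblasts, and Runx3 acts in T cells, natural killer cells and sensory neurons. Each Runx gene is read from a distal promoter (P1) and a proximal promoter (P2) that give proteins with different first residues. The Cbfa2t proteins do not bind DNA on their own. They bring corepressor complexes with histone deacetylases to transcription factors, Cbfa2t3 (also called Eto2 or Mtg16) chiefly to the Tal1 and Gata complexes of blood stem cells and erythroid precursors. RUNX1 and RUNX1T1 are joined in the fusion protein of a common form of acute myeloid leukaemia. Dnmt3a methylates unmethylated CpG sites and is often mutated in that disease.

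The 3 distal Runx promoters shared a sequence but were not covered by the assay. In the RefSeq promoter table (GRCm38.p6, from 250 bases before to 50 after each start), the distal windows of Runx1, Runx2 and Runx3 each held TGTGGT on the opposite strand as a pair of ACCACA copies with the same spacing. The stretches are shown because they differ from the CpG-rich starts described next; capitals mark ACCACA, and each is on the strand of its gene.
Runx1 distal start, GRCm38 chr16:92826025-92826053, minus strand: ataaacaACCACAgaACCACAagttgggt
Runx2 distal start, GRCm38 chr17:44814582-44814611, minus strand: acaaacaACCACAgaACCACAagtgcggtg
Runx3 distal start, GRCm38 chr4:135120504-135120533, plus strand: tccctcaACCACAgaACCACAaggccaggc
The stretch lay 21 to 49 bases after the start in Runx1, 16 to 45 after it in Runx2, and 141 to 112 bases before it in Runx3. TGTGGT, searched on both strands, was present in 16.8% of the 32851 promoter windows of 300 bases, and 1.81% held it more than once. The pair, searched as ACCACANAACCACA on both strands after the sequences had been seen, was in 5 windows (0.0152%): those of Runx1, Runx2, Runx3, Olfr24 and Gm16225, whose opposite-strand start lies beside the distal start of Runx3. These windows were poor in CpG, with 2 sites in Runx1, 2 in Runx2 and 8 in Runx3. The distal windows of Runx1 and Runx2 had 0 listed C positions, and that of Runx3 had 4, of which 0 were listed in all 10 libraries. The methylation of the distal Runx promoters is therefore not measured here.

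The internal starts of Runx1, Runx3 and Cbfa2t3 were CpG-rich and measured in part. Their 250 bases before the start are shown because the positions measured there were unmethylated. No loss could have been seen at those positions. Of the 8 tiles with the main losses, 7 lay within 5 kb of these starts. How many other tiles lie as near was not counted, so nearness to a start cannot be called particular to the losses. Capitals mark bases whose CpG cytosine was measured in all 10 libraries on the printed strand (C) or the opposite one (G). In Cbfa2t3 13 of the 250 printed bases are capitals, so many of its CpG sites were not measured.
Runx1 internal start, GRCm38 chr16:92697330-92697579, minus strand: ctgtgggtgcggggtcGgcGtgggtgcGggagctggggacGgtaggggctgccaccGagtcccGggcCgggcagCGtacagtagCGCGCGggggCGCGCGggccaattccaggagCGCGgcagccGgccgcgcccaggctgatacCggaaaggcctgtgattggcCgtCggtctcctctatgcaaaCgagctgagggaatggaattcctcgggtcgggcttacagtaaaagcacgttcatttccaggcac
Runx3 internal start, GRCm38 chr4:135152295-135152544, plus strand: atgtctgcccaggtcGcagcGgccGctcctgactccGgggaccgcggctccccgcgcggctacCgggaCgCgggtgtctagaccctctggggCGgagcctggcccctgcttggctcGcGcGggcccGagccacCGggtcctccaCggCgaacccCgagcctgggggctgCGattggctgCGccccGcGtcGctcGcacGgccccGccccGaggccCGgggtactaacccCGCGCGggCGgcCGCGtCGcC
Cbfa2t3 internal start, GRCm38 chr8:122678176-122678425, minus strand: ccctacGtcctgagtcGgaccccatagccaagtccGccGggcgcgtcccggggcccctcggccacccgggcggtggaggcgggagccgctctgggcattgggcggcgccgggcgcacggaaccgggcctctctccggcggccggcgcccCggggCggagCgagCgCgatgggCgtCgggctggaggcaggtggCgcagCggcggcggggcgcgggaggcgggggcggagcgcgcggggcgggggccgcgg
Over the full windows these starts held 35, 45 and 53 CpG sites. The positions measured in all 10 libraries were unmethylated in every library. Over 38 positions the highest Runx1 level was 0.458%, over 48 positions the highest Runx3 level was 0.897% (knockout LSK library 1333), and over 22 positions the highest Cbfa2t3 level was 0.649%. The same held at the start of Cbfa2t2, with 38 positions and a highest level of 0.160%, and at the start of Cbfb, with 18 positions and a highest level of 0.561%. A second, distal start of Cbfa2t3 had 5 positions and levels of at most 2.68%. TGTGGT was in none of these 6 windows. CCGG, the MspI site, was found in 52.8% of all windows, 5 times in the internal window of Runx3, 4 times in that of Runx1 and 8 times in that of Cbfa2t3. GATAA, the Gata core, was in 25.4% of all windows and among these promoters in 1, the distal window of Cbfa2t3, which also held CANNTG, the E-box, 4 times against 72.3% of windows with any.

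Pooled over whole genes, the family split into methylated and unmethylated members. Runx1 (chromosome 16, 92601466 to 92826074) was the highest, with control LSK libraries at 41.4%, 44.0% and 44.1%. Runx3 (chromosome 4, 135120645 to 135177990) and Cbfa2t3 (chromosome 8, 122625136 to 122699332) followed. In control LSK they were at 29.7% ± 0.482 and 27.6% ± 1.17 (SD, n = 3), without overlap between the levels of the 2 genes. In control GMP they did not differ beyond their spread, at 30.5% ± 0.802 and 30.8% ± 0.629 (SD, n = 2). Runx2 (chromosome 17, 44495987 to 44814797) was at 22.4% ± 0.959 (n = 3) in control LSK. Runx1t1 (chromosome 4, 13742628 to 13895056) was at 5.49% ± 0.147. Cbfb (chromosome 8, 105170674 to 105217989) and Cbfa2t2 (chromosome 2, 154436098 to 154539356) were at 0.938% ± 0.0920 and 0.159% ± 0.0907, since their measured positions lay almost wholly at their starts. A pooled level depends on which positions the MspI fragments cover: 44.5% of Runx1 positions but 71.1% of Runx2 positions had a mean level under 10%. Runx1 overlaps Gm30281, Runx2 overlaps Supt3 and Runx2os3, Runx3 overlaps Gm16225, and Cbfa2t3 overlaps Gm10612, so some positions belong to more than 1 gene.

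In knockout LSK the pooled level of Runx3 was lower in every library. Its controls were at 29.5%, 30.2% and 29.3% and its knockouts at 23.2%, 20.2% and 21.4%. Cbfa2t3 showed the same order, with controls at 28.6%, 27.9% and 26.3% and knockouts at 22.6%, 23.3% and 20.9%. In both genes the groups did not overlap. Runx1 was at 42.6%, 35.8% and 40.1% in knockout LSK and overlapped its controls, and so did Runx2 at 24.6%, 19.7% and 21.3%. The knockout means differed from control by -8.07 points in Runx3, -5.34 in Cbfa2t3, -3.68 in Runx1, -0.490 in Runx2 and -0.846 in Runx1t1, with no overlap in 3 of 7 genes lower and 0 higher (background 12.9% and 2.78%). Without library 1333 the differences were -7.38 in Runx3, -5.84 in Cbfa2t3, -1.83 in Runx1 and 0.602 in Runx2, so that of Runx2 turned in sign. Between the LSK libraries with many Y positions they were -6.33, -6.04, 1.17 and 3.30, and among those with few they were -8.94, -4.99, -6.11 and -2.38. Runx3 and Cbfa2t3 were lower in each of these subsets, while the sign in Runx1 and Runx2 depended on the libraries. This is the contrast that chose the genes.

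The GMP libraries were tested over the whole genome. Earlier results of these libraries were known when the genes were chosen, so the GMP values may not be fully independent of the choice. Here 0 of the 7 genes passed in either direction (adjusted p under 0.05 and at least 10 points, quasi-binomial F test moderated by limma; background 0.00424% of genes lower and 0% higher). Cbfa2t3 was at 31.3% and 30.4% in controls and at 24.2% and 28.3% in knockouts, a difference of -4.57 points (limma-moderated adjusted p = 1). Runx2 was at 23.8% and 25.1% in controls and at 19.96% and 19.89% in knockouts, a difference of -4.51 points (limma-moderated adjusted p = 1). These were the 2 genes with an unadjusted p under 0.05 in the same test, both lower (background 3.39% lower and 1.38% higher). Runx1, Runx3 and Runx1t1 differed by -3.07, -2.86 and -1.51 points (limma-moderated adjusted p = 1 each). Both knockout libraries were below both controls in 5 of 7 genes (background 24.4%), all but Cbfb and Cbfa2t2.

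**Figure D1:**
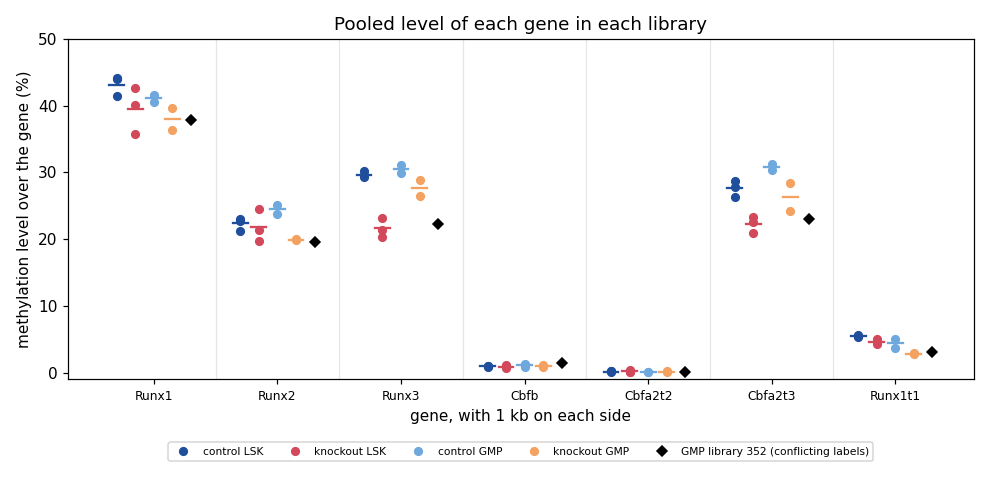
Pooled methylation level (%, y axis) of each of the 7 genes (x axis, gene span with 1 kb on each side). Points are libraries, bars are group means and the black diamond is GMP library 352. In Runx3 the 3 knockout LSK libraries (20.2% to 23.2%) lie below the 3 controls (29.3% to 30.2%), while Cbfb and Cbfa2t2 are near 0 in every library.

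Of the 5 Runx3 tiles at least 20 points lower in knockout LSK, 3 lay side by side just downstream of its internal start (position 135152545, plus strand), 1 lay upstream of it and 1 near the end of the gene. The tile from 2456 to 3455 bases after this start (chr4:135155001-135156000, 17 positions) was at 64.3%, 65.4% and 62.8% in control LSK and at 15.8%, 8.07% and 9.31% in knockout LSK. The group means were 64.1% ± 1.30 and 11.1% ± 4.15 (SD, n = 3), a difference of -53.1 points. In GMP the same tile was at 71.7% and 53.9% in controls and at 32.8% and 40.9% in knockouts. That difference was -26.0 points (limma-moderated adjusted p = 0.181). Both knockout GMP libraries were below both controls, and the 2 controls had an SD of 12.6 points.

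The next tile, 3456 to 4455 bases after the start (5 positions), had the largest difference of all 88 tiles in LSK, at -55.4 points. Control LSK was at 81.0%, 82.0% and 82.3%, and knockout LSK at 37.1%, 13.03% and 29.0%. GMP controls were at 81.7% and 87.5% and knockouts at 51.6% and 73.5% (-22.1 points, limma-moderated adjusted p = 0.512). On the near side, the tile from 1456 to 2455 bases (4 positions) was already at an intermediate level in control LSK, 41.5% ± 2.35, and at 12.1% ± 3.36 in knockout LSK. In GMP it was at 37.2% and 32.6% in controls and at 12.6% and 23.6% in knockouts (-16.8 points, limma-moderated adjusted p = 0.378). The 3 tiles lie between the unmethylated start and the methylated gene body, and each of them was lower in knockout LSK.

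Runx3 had a lower tile on the other side of the start and another near the end of the gene. In the tile from -1544 to -545 bases relative to the start (4 positions) control LSK was at 89.6%, 80.4% and 85.7% and knockout LSK at 71.3%, 46.3% and 43.9%. The GMP controls were at 92.5% and 89.0% there and the knockouts at 68.0% and 78.8% (-17.3 points, limma-moderated adjusted p = 0.747). This tile had a mean coverage of 48.0 reads, the lowest of the 8 tiles described here. The tile from 22456 to 23455 bases after the start (chr4:135175001-135176000, 33 positions) was at 79.7%, 78.3% and 78.1% in control LSK and at 36.6%, 32.3% and 29.8% in knockout LSK. Its GMP controls were at 86.1% and 89.3% and its knockouts at 65.6% and 76.0% (-16.9 points, limma-moderated adjusted p = 0.136). A further Runx3 tile, from 13456 to 14455 bases after the start, was measured in the LSK libraries but not in all 10. It was at 86.7% ± 3.36 in control LSK and 24.0% ± 21.2 in knockout LSK, at a mean coverage of 20.3 reads, with 0% in library 1333, and the difference of -62.7 points was -50.7 without that library.

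Cbfa2t3 showed the lowest levels reached by any of these tiles in knockout LSK, and the largest differences in GMP. Its internal start lies at position 122678175 on the minus strand. The tile from 1175 to 2174 bases after the start (chr8:122676001-122677000, 11 positions) was at 55.3%, 57.7% and 54.9% in control LSK and at 12.1%, 7.57% and 7.36% in knockout LSK. The tile from 3175 to 4174 bases (chr8:122674001-122675000, 14 positions) was at 65.4%, 69.9% and 63.3% in control LSK and at 14.5%, 11.03% and 9.53% in knockout LSK. These are differences of -47.0 and -54.5 points, and no knockout library came within 40 points of a control.

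In GMP both Cbfa2t3 tiles had higher control levels than in LSK, and their adjusted p-values lay just above 0.05. The nearer tile was at 62.1% and 69.9% in controls and at 35.7% and 39.3% in knockouts, a difference of -28.5 points (limma-moderated adjusted p = 0.0509). The farther tile was at 78.9% and 89.1% in controls and at 39.5% and 59.1% in knockouts, a difference of -34.7 points (limma-moderated adjusted p = 0.0579). They were the 2 smallest adjusted p-values among the 88 tiles. With other filters, models and left-out libraries the limma-moderated adjusted p ran from 0.00337 to 0.605 for the nearer tile and from 0.00284 to 0.558 for the farther one, and each passed in 6 of 12. The tile between the start and these 2, from 175 to 1174 bases (17 positions), was low but not empty: 9.10%, 9.35% and 8.12% in control LSK against 1.34%, 1.33% and 0.279% in knockout LSK, and 22.2% and 16.9% in control GMP against 7.04% and 10.4% in knockout GMP (-10.8 points, adjusted p = 0.296).

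Runx1 had a single tile that was at least 20 points lower in knockout LSK. It lies 1329 to 2328 bases after the internal start (position 92697329, minus strand; chr16:92695001-92696000, 15 positions). Control LSK was at 91.0%, 92.6% and 91.2%, and knockout LSK at 76.9%, 57.8% and 58.2%. GMP controls were at 90.3% and 86.1% and knockouts at 74.9% and 78.3%, a difference of -11.6 points (limma-moderated adjusted p = 0.679). Compared with Runx3 and Cbfa2t3, the control level was higher and the knockouts kept over 50% methylation. The difference was -14.1 points between the 2 LSK libraries with many Y-chromosome positions and -33.9 points between the 4 with few, and each knockout library stayed below the controls of its own kind.

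**Figure D2:**
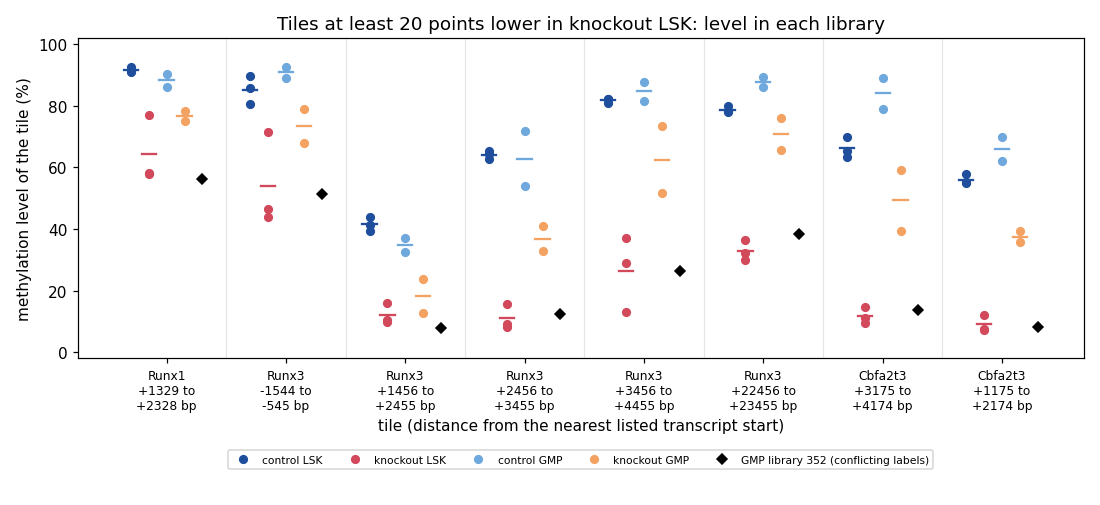
Methylation level (%, y axis) of the 8 tiles at least 20 points lower in knockout LSK with no overlap between the 3 knockout and the 3 control libraries. Points are libraries, bars are group means and the black diamond is GMP library 352. In every panel both knockout GMP libraries lie below both control GMP libraries, and library 352 lies below both knockout GMP libraries.

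Together 8 of 88 tiles, 5 in Runx3, 2 in Cbfa2t3 and 1 in Runx1, were at least 20 points lower in knockout LSK with no overlap between libraries, beside a background of 1.14% of all tiles. These differences chose the genes, and the tiles are named for them. Just inside the threshold was Runx1 at -27.3 points, and just outside it were a Runx1 tile 16074 to 17073 bases after the distal start (-18.5, and -10.5 without library 1333), a Runx3 tile from -5544 to -4545 bases relative to the internal start (-17.9, and -20.5 without 1333) and a Runx2 tile (-16.0, and -20.9 without 1333). Without library 1333 the 8 differences ran from -54.2 to -24.0 points. They ran from -50.9 to -14.1 in the pair with many Y positions and from -61.2 to -32.5 in the 4 libraries with few. Within the tiles the difference was shared by neighbouring positions. Each of the 103 C positions had a lower mean in knockout LSK, and 97 had a lower mean in knockout GMP. The tiles were picked for their LSK difference, so the LSK count was largely fixed by that choice. Neighbouring positions share reads and are not replicates, and the GMP count was not set beside positions of other tiles.

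Some order among libraries recurred in all 8 tiles. These orders were not counted over other tiles, so they cannot be called particular to the 8. Library 1327 was the highest of the 3 knockout LSK libraries in 8 of 8, and knockout GMP library 178 was below 179 in 8 of 8. The same 2 GMP libraries listed 4 and 5 of the 5 Dnmt3a positions missing from knockout LSK; the part of remaining Dnmt3a alleles in the GMP result was not tested. Library 352, which listed 0 of these 5, was below both knockout GMP libraries in 8 of 8 tiles. It was 70.4 to 27.2 points below the mean of the GMP controls, at 12.4% in the Runx3 tile from 2456 to 3455 bases and at 8.07% and 13.6% in the 2 Cbfa2t3 tiles.

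Position by position, the losses beside the internal starts lay in measured positions beyond the unmethylated start. In Runx3, 73 positions in the first 1 kb after the internal start averaged 0.480% in control LSK and 0.924% in knockout LSK. The next 1 kb, with 22 positions, averaged 0.415% and 0.387%. No position was measured between 1356 and 2223 bases after this start. The 26 positions from 2 to 4 kb then averaged 64.9% in control LSK and 14.8% in knockout LSK, and 64.4% and 40.004% in GMP. The start itself was near 0 in all groups, so no loss could have been seen there. The difference that could be seen lay in the flank.

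In Cbfa2t3 the flank came closer to the start. The 36 positions of the first 1 kb averaged 4.70% in control LSK and 0.412% in knockout LSK, and 10.4% and 4.05% in GMP. Between 1 and 2 kb the 10 positions averaged 48.9% and 6.51% in LSK and 67.3% and 35.0% in GMP. The 8 positions between 4 and 6 kb averaged 56.2% and 7.66% in LSK. Upstream of this start 90 positions within 1 kb were all low, at 0.520% in control LSK and 0.376% in knockout LSK. In Runx1, 24 positions of the first 1 kb averaged 3.08% in control LSK. The 18 positions of the next 1 kb averaged 92.2% in control LSK and 67.1% in knockout LSK. No position was measured between 503 and 1248 bases after this start, so the shape of the change from low to high is not known. The 4 positions from 2 to 4 kb stood at 97.0% and 89.0% in LSK, so the LSK difference narrowed with distance from the start. In GMP these 4 positions stood at 90.0% in control and 91.8% in knockout.

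**Figure D3:**
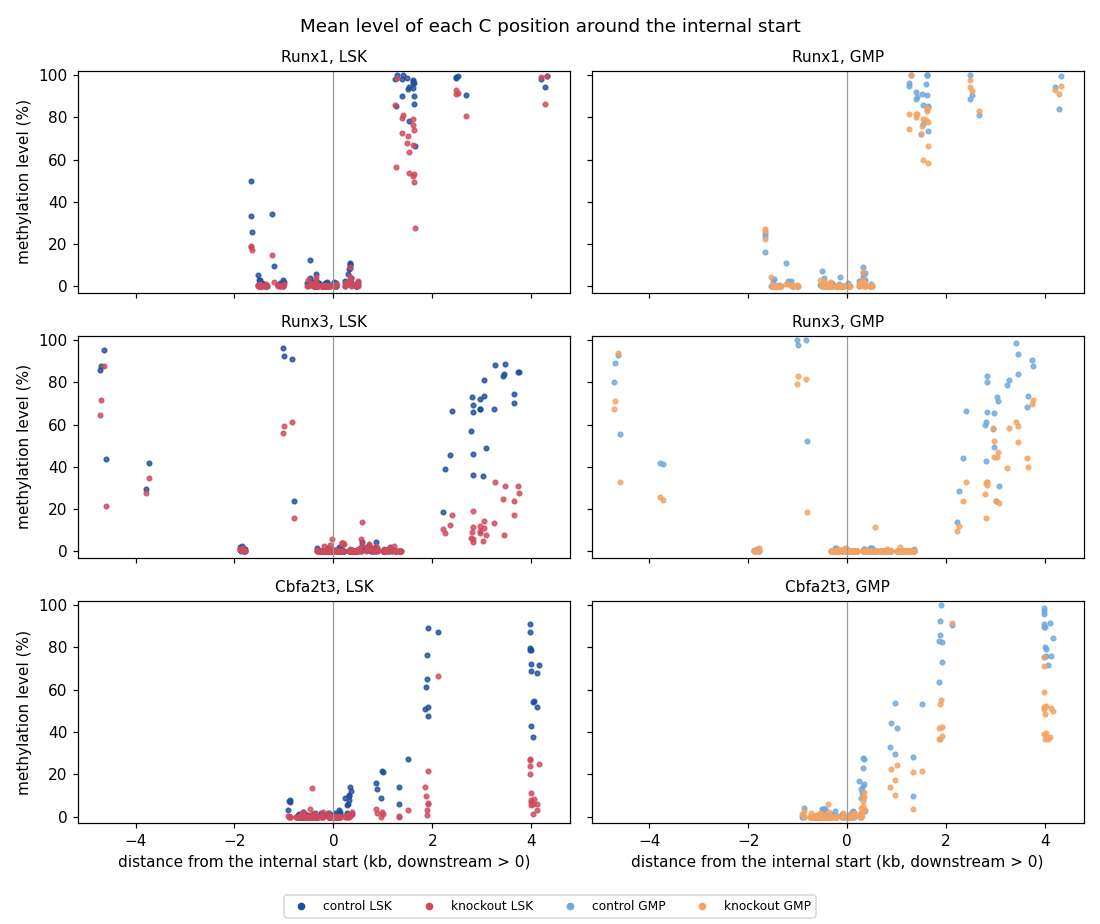
Mean level of each measured C position (%, y axis) by its distance from the internal start (kb, x axis; downstream is positive) in Runx1, Runx3 and Cbfa2t3, for LSK (left) and GMP (right). Each point is 1 position averaged over the libraries of a group. The starts are near 0 in all groups. In the downstream flank knockout levels are lower than control on average, from 64.9% to 14.8% between 2 and 4 kb in Runx3 LSK. Runx1 GMP beyond 2 kb is an exception, with 90.0% in control and 91.8% in knockout between 2 and 4 kb.

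Across the 88 tiles, 0 passed in GMP in either direction (limma-moderated quasi-binomial test over all 100150 tiles, adjusted p under 0.05 and at least 20 points; background 0.0589% lower and 0.00899% higher). An unadjusted p under 0.05 was reached by 15 tiles with lower and 1 with higher levels in knockout GMP (background 5.42% and 1.03%). By limma on logit levels 0 passed as well (background 0.00799%). A fit on the 4 GMP libraries alone called 4 tiles lower (background 0.299%): both Cbfa2t3 tiles (adjusted p = 0.00284 and 0.00337), the Runx3 tile from 2456 to 3455 bases (adjusted p = 0.0116) and a Runx2 tile described below (adjusted p = 0.0180). Both knockout libraries were below both controls in 30 tiles and above them in 9 (background 25.9% and 11.2%). The median difference over the 88 tiles was -0.575 points, beside -0.321 over all tiles.

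The 8 tiles picked in LSK gave a median of -19.7 points in GMP (range -34.7 to -11.6). The same rule picked 1133 other tiles of the genome, whose median in GMP was -14.0 points (quartiles -21.2 and -8.01). In LSK, where they were picked, the medians were -46.4 and -24.6 points. As a share of the LSK difference the GMP difference had a median of 52.1% in the 8 tiles and 54.3% in the others. Both knockout GMP libraries were below both controls in 8 of 8 tiles and in 76.4% of the others, and 3.09% of the others passed the GMP test. The median over the 8 tiles depended on the knockout library: it was -11.8 points without 178 and -26.4 without 179.

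**Figure D4:**
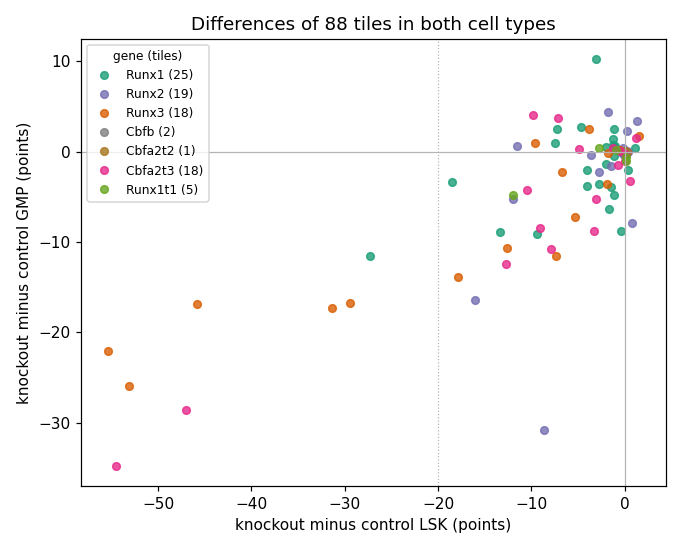
Knockout minus control difference in level (percentage points) of the 88 tiles in LSK (x axis) and GMP (y axis), coloured by gene. The dotted line marks 20 points in LSK. The 8 tiles to its left lie between -34.7 and -11.6 points in GMP, and 1 Runx2 tile lies low in GMP (-30.8) at -8.62 in LSK.

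In Runx2, 0 of 19 tiles were at least 20 points lower in knockout LSK, and 1 was without library 1333. Its largest LSK difference was in a tile near the 3 prime end of the gene (chr17:44511001-44512000, 7 positions), with controls at 83.9%, 78.3% and 87.0% and knockouts at 64.1%, 76.8% and 60.3% (-16.0 points, and -20.9 without 1333). That tile was at 90.8% ± 3.96 in control GMP and 74.3% ± 3.36 in knockout GMP (SD, n = 2), with no overlap (-16.5 points, limma-moderated adjusted p = 0.415). A second Runx2 tile (chr17:44724001-44725000, 10 positions) had the second-largest GMP difference of the 88, -30.8 points (adjusted p = 0.192), from controls at 73.6% and 65.95% to knockouts at 53.8% and 24.2%. Library 179, not 178, was the lower one there, unlike in the 8 tiles above. In LSK this tile was at 73.4%, 87.1% and 86.3% in controls and at 74.97%, 67.8% and 78.2% in knockouts, so the groups overlapped. Runx2 lies near the end of a fixed 5-Mb window, chromosome 17 from 40 to 45 Mb. There 17 of 1335 positions (1.27%) were listed in every library of 1 GMP genotype and in none of the other. It was the only member window above 1%, beside at most 0.211% in the others. The share of all windows above 1% is not given here, and the part of this window in the Runx2 values was not tested.

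Runx1t1, Cbfb and Cbfa2t2 were mostly unmethylated in all groups. Of the 5 Runx1t1 tiles, 4 were under 10% in every library. The fifth (chr4:13751001-13752000, 12 positions) was at 32.0%, 34.4% and 30.8% in control LSK and 23.2%, 18.5% and 19.5% in knockout LSK. In GMP it overlapped between genotypes, with controls at 37.5% and 25.9% and knockouts at 28.8% and 25.1% (-4.79 points, limma-moderated adjusted p = 1). The 2 Cbfb tiles and the 1 Cbfa2t2 tile cover the starts of those genes with 68, 82 and 62 positions, and their levels were at most 0.505% in all libraries. No loss could have been seen in these 3 tiles. Elsewhere, 18 of 25 Runx1 tiles, 12 of 19 Runx2 tiles, 11 of 18 Runx3 tiles and 9 of 18 Cbfa2t3 tiles were above 80% in control LSK. Over all 88 tiles the median LSK difference was -1.92 points beside -0.368 over all tiles, and the groups did not overlap in 38 lower and 0 higher tiles (background 15.3% and 3.33%).

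Control GMP and control LSK were compared to see how these genes differ between the normal cell types. Between control GMP and control LSK, 0 of 88 tiles differed by at least 20 points at an adjusted p under 0.05 (limma-moderated test; background 0.799% lower and 0.0859% higher in GMP), and 0 of 7 genes by at least 10 points (background 0.514% and 0.357%). Unadjusted p-values under 0.05 were found for 9 tiles lower and 4 higher in GMP (background 5.55% and 3.51%), and for 0 genes (background 5.92% and 11.5%). The groups did not overlap in 30 tiles lower and 9 higher in GMP (background 18.3% and 13.9%). The Cbfa2t3 tile from 3175 to 4174 bases had the largest difference upward, 17.8 points (limma-moderated adjusted p = 0.143). A Runx1 tile (chr16:92614001-92615000, 12 positions) was lower in GMP by less than the 20 points asked: it was at 90.3%, 88.4% and 90.2% in control LSK and at 68.8% and 78.3% in control GMP (-16.1 points, adjusted p = 0.00587). Knockout LSK stayed at 86.1%, 88.3% and 86.2% there, and knockout GMP at 69.9% and 70.0%. The Cbfa2t3 tile from 175 to 1174 bases after the internal start was higher in control GMP by 10.7 points (adjusted p = 0.0335). These 2 tiles were chosen after their values were seen. This comparison shares its control LSK libraries with the one that chose the genes.

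Genes that work with these factors or are bound by them were tested alongside. The list held 27 partners, with 202 tiles, and 14 target genes, of which 11 had 28 tiles. It was drawn up with earlier results of these libraries known, so its counts are not independent of them. In GMP 0 tiles of either list passed in either direction (limma-moderated test, background 0.0589% and 0.00899% as above; at an unadjusted p under 0.05, 12 partner tiles and 1 target tile were lower, beside a background of 5.42%). In LSK 7 partner tiles (3.47%) and 1 target tile (3.57%) were called lower and 0 higher, beside a background of 0.987% of tiles called lower and 0.00399% higher. Genes with a called tile, named here after their values were seen, included Gata2, Zfpm1 (Fog1, a Gata cofactor), Gfi1 (a repressor of stem and myeloid cells), Spi1 (PU.1), Tle3 (a Groucho corepressor) and Zbtb7b (ThPOK, a T-cell factor). The Gfi1 tile went from 36.4% to 8.39% in LSK (limma-moderated adjusted p = 0.000239) and from 74.0% to 41.0% in GMP (adjusted p = 0.102). The Gata2 tile went from 80.2% to 50.03% in LSK (limma-moderated adjusted p = 0.00013) and from 81.6% to 66.6% in GMP (adjusted p = 0.403).

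Tiles elsewhere in the genome had much the same levels in the 10 libraries. The nearest to the Runx1 tile lay in Tom1l2, with a mean absolute difference of 2.43 points over the 10 libraries, and the next in Fxyd1 and the overlapping Gm38984 (2.67 points) and 17179 bp from Snx18 (3.53 points). The nearest to the Runx3 tile from 3456 to 4455 bases lay 15046 bp from Gm25569 (4.14 points), in Zc3h3 (4.58) and in Evi5l (5.11). For the Cbfa2t3 tile from 3175 to 4174 bases they lay in Pou2f2 (6.03), Ltbp3 (6.06) and Gnai2 (6.21). The Gnai2 tile, for example, had a control LSK mean of 74.6% and a knockout LSK mean of 12.8%, and means of 79.1% and 41.7% in GMP. Likeness of levels was the sole measure used to name them.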

How the data were processed

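The authors deposited 1 table per library. Per the file headers, each row gives a CpG cytosine, its coverage as a count of reads, and the shares of C and T calls in percent. Bismark, mm10 and GRCm38 are named, without a version, in the submitters' processing notes. Listed positions have a coverage of at least 10, and an unlisted position is no zero. Coverage times percent gave methylated and unmethylated reads. Other chromosomes, 32 to 59 positions per library, were left out.

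Genes and promoters came from RefSeq tables of GRCm38.p6; exon, intron and UTR annotation was not used here. Reads were pooled per 1000-bp tile (3 or more positions listed in all 10 libraries) and per gene with 1 kb on each side (5 or more). A quasi-binomial model with 1 level per group over all 10 libraries gave F tests, with the dispersion moderated by limma 3.58.1 in R 4.3.3 (squeezeVar, prior from features at 5 to 95%) and kept at 1 or above, with p-values adjusted over all features by Benjamini-Hochberg. The spread is shared by the 4 groups, which leaves 6 residual degrees of freedom. A call needed an adjusted p under 0.05 and 20 points (tiles) or 10 points (genes). On simulated knockout and control GMP data over 100150 tiles, 8 of 50 tiles lowered by 20 points were called. So were 29 of 50 lowered by 30, 40 of 50 by 40 and 46 of 50 by 50. The changed tiles came from a limited range of levels, and the simulated dispersion was fixed. Since a call also asked for 20 points, tiles lowered by 20 could miss on size alone.

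Each difference is the mean of knockout libraries minus the mean of control libraries. The labels do not say that libraries came from separate animals, so p-values measure the spread between libraries. Levels of the 8 main tiles rest on 109 to 4493 C and T calls per library, summed over the positions of a tile. Taken as independent calls, they gave a 95% Wilson half-width of 1.22 to 6.96 points. A read that covers several positions is counted at each, and reads carry no molecular identifiers. These intervals can therefore be too narrow even for counting error, and they leave out the spread between libraries. All 7 genes are named, with each tile at least 20 points lower in knockout LSK, each tile that passed elsewhere, and the 3 most similar tiles. Values of 1 listed partner gene are not reported here. The genes, lists and tests were chosen with earlier results of these data known. Alternatives were other coverage and position minimums, a shifted grid, summed strands, other priors and models, and leaving out each library.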

Additional observations from a re-analysis of the deposited data

Results flagged for a closer look

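GMP library 352, whose labels name both genotypes, was at least 20 points below the mean of the 2 control GMP libraries in 15 of the 88 tiles. The share of all tiles with such a difference was not counted, so the 15 cannot be called particular to these genes. Library 352 was used in no comparison, and these differences were not tested. In Cbfa2t3 it differed by -70.4 points in the tile 3175 to 4174 bases after the internal start and by -58.0 in the tile 1175 to 2174 bases after it. In Runx3 the tiles from 1456, 2456 and 3456 bases after the internal start differed by -27.2, -50.5 and -58.1 points, the tile near the gene's end by -49.5, and the tiles from -5544 and -1544 bases relative to the start by -24.9 and -39.4. A Runx3 tile 8356 to 9355 bases after the distal start differed by -24.6. In Runx1 the tile beside the internal start differed by -32.1 points, a tile at chr16:92666001-92667000 by -38.3 and the tile 16074 to 17073 bases after the distal start by -28.9. The 3 Runx2 tiles at chr17:44511001-44512000, chr17:44651001-44652000 and chr17:44724001-44725000 differed by -23.2, -38.6 and -47.7. At the Runx1 tile at chr16:92666001-92667000 and the Runx2 tile at chr17:44651001-44652000 library 352 was at 49.3% and 54.1%.

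In 2 tiles every knockout library was below every control in LSK and above every control in GMP. Over all tiles, 15.3% were lower without overlap in LSK, and 11.2% were higher without overlap in GMP. The share with both was not counted, so the 2 tiles cannot be called particular to these genes. The difference between cell types was not tested. A Runx1 tile 329 to 1328 bases after the internal start differed by -7.23 points in LSK and 2.44 in GMP. A Runx3 tile 19456 to 20455 bases after the internal start differed by -3.80 points in LSK and 2.51 in GMP, with all libraries above 93%.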

How the results depend on the processing

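The count of 0 member tiles lower in knockout GMP moved with the settings. It was 2 with the prior fitted on all features, 2 at a coverage of at least 20, 2 at a coverage of at least 30, 1 with the strands of a CpG summed, 1 with the grid shifted by 500 bp, and 4 both for the 4 GMP libraries alone and for positions common to them. It ran from 0 to 1 when each GMP library was left out, with 1 without 179; the remaining library is then assumed to vary like the other groups. Over the genome 59 such tiles became 26 without 179 and 0 without 178, 346 or 349. The cause was not tested. The 2 Cbfa2t3 tiles accounted for the calls at both coverage minimums and with the prior on all features. In the control comparison, the count of lower tiles ran from 0 to 1 (1 without 349), and the count of higher tiles was 1 at a coverage of at least 30. Partner and target tiles lower in GMP, 0 in all, were 2 for the 4 GMP libraries alone, 1 for positions common to them and 1 on the shifted grid. In LSK, 8 became 5 with at least 5 positions per tile and 13 on the shifted grid, and ran from 7 to 10 over the left-out libraries. The 8 member tiles lower in LSK were 6 to 10 over 13 alternatives, 3 of them chosen after seeing the data (positions common to the 6 LSK libraries, and LSK libraries split by Y positions). The counts split by Y positions asked for 20 points only, without the rule of no overlap. The split with many Y positions held 1 library of each genotype. The median GMP difference kept its sign in 14 of 14. No paired analysis was possible because the groups share no library numbers. Differences of 20 points were seldom called in simulated data, where a call itself asked for 20 points. With 2 libraries per GMP group, a miss is no sign of equality.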
